A study of Mus musculus with 4 samples.

Results

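The cytokine genes through which dendritic cells (DCs) steer T cells were read here as 10 genes chosen by symbol, Il10, Il27, Ebi3, Il2, Il6, Il12a, Il12b, Il23a, Il15 and Tnf, out of 46078 gene rows in the count table. All 10 had a row, and 8 of them passed the filter on low counts. Il2 and Il23a did not pass and are given as raw counts. The Il33flx group held 2 libraries from mice with the genotype CD11c-cre-Il33flx/flx, in which loxP-flanked Il33 alleles can be removed by a Cre recombinase driven from the CD11c promoter, and the Ctrl group held 2 libraries from mice with CD11c-cre alone. Every mouse of either group thus carried the Cre transgene, and every mouse had been given EL4-Flt3 tumor cells 10 days before the cells were taken. The CD11c promoter is active in DCs and in some macrophages and other leukocytes, so that removal need not be limited to DCs. Cells from spleen and mesenteric lymph node went into the same sort, gated as CD45+, CD64-, CD11b+, MHCII+ and CD103+. No source used here gives the strain, the age or the number of mice behind a library, so p-values here cover the scatter among 4 libraries, part or all of which may be technical.

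A DC that has met a microbe or a dying cell gives a T cell a cytokine signal beside antigen and costimulation, and that signal helps to set which kind of helper T cell develops. IL-12, a pair of the p35 subunit (Il12a) and the p40 subunit (Il12b), favours interferon-gamma-producing T cells. IL-23 joins the same p40 to a p19 subunit (Il23a) and maintains IL-17-producing T cells, which IL-6 and TGF-beta help to start. IL-27 joins the p28 subunit (Il27) to Ebi3 and, like IL-10, can restrain T cells. IL-15 sustains memory CD8 T cells and natural killer cells, IL-2 is the T cell growth factor, and TNF is a general inflammatory signal that also matures DCs.

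Gene counts summed to 67707682 and 69983532 in the Il33flx libraries and to 81217828 and 75094424 in the Ctrl libraries. The gate genes were read in every library, with Itgae (CD103) at 56.8 to 116 CPM (reads scaled to a common library size with TMM factors) and Fcgr1 (CD64) at 3.66 to 5.50 CPM. Itgax (CD11c), whose promoter drives the Cre, had 359 and 407 CPM in Il33flx and 647 and 517 CPM in Ctrl. It was lower without overlap, where 14.9% of all tested genes were. Its log2 fold change was -0.60 ± 0.19 SE (unadjusted p = 0.0182, adjusted p = 0.995, edgeR). The targeted gene, Il33, had 4 and 0 counts in Il33flx and 4 and 8 in Ctrl, too few to check the labels. Of the 8 tested cytokine genes, 4 were highest and 3 lowest in Ctrl 1, where 34.2% and 36.1% of all tested genes were, so values without that library are given beside the cytokine genes whose direction it decides. Across all genes the quasi-likelihood test of edgeR called 1 gene higher and 0 lower, and 489 of 14995 had an unadjusted p under 0.05.

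In the GENCODE M21 annotation of GRCm38, the IL-12 family genes lie at chr17:55952640-55957022 (Ebi3, ENSMUSG00000003206), chr11:44400063-44414033 (Il12b, ENSMUSG00000004296), chr7:126589010-126594941 (Il27, ENSMUSG00000044701), chr3:68690644-68698547 (Il12a, ENSMUSG00000027776) and chr10:128296139-128298752 (Il23a, ENSMUSG00000025383). Tnf (ENSMUSG00000024401) lies at chr17:35199381-35202007, Il6 (ENSMUSG00000025746) at chr5:30013114-30019981 and Il10 (ENSMUSG00000016529) at chr1:131019845-131024974. Il15 (ENSMUSG00000031712) lies at chr8:82331632-82403222 and Il2 (ENSMUSG00000027720) at chr3:37120523-37125959. The counts are of reads over the exons of each gene.

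The shared or partner subunits of the IL-12 family were abundant, and the subunits that give each cytokine its identity were scarce. Ebi3 stood at 39.4 and 42.1 CPM in the Il33flx libraries and at 45.6 and 38.9 CPM in the Ctrl libraries, so the groups overlapped. The log2 fold change of Ebi3 was -0.05 ± 0.20 SE (adjusted p = 0.995, edgeR) and turned to 0.07 without Ctrl 1. Il12b had 25.3 and 23.9 CPM in Il33flx, against 18.8 and 22.6 CPM in Ctrl, and both Il33flx libraries lay above both Ctrl libraries. Il27 was near 1 CPM, at 1.69 and 0.664 CPM in Il33flx and 0.912 and 0.558 CPM in Ctrl, and the highest and the third highest values were the Il33flx ones. Il12a was lower still, with 49 and 32 reads (0.694 and 0.452 CPM) in Il33flx and 57 and 21 reads (0.743 and 0.279 CPM) in Ctrl. The spread inside either group of Il12a was wider than the distance between the groups. Il23a was close to the limit of detection, with 4 and 3 reads in Il33flx and 14 and 0 reads in Ctrl. The count of 0 in Ctrl 2 allows a level of up to 0.0399 CPM, the worth of 3 reads there, and such limits cover counting error only.

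**Figure D1:**
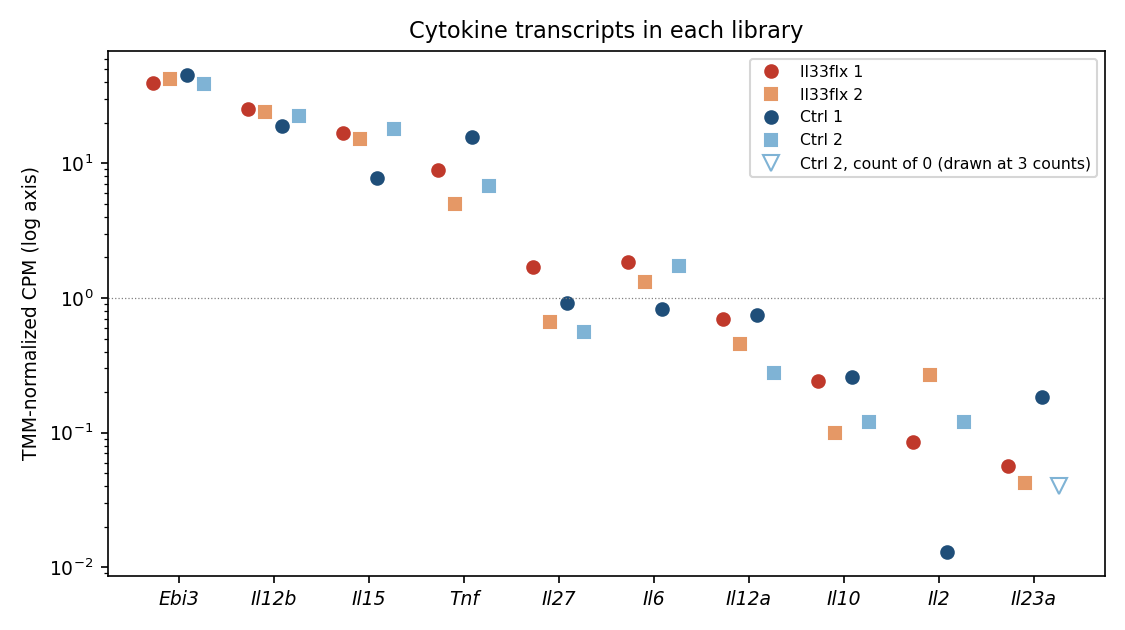
Level of the 10 cytokine genes in each library, as TMM-normalized CPM on a log axis, 1 point a library, ordered from left to right by level per kilobase. The open triangle marks a count of 0, drawn at the worth of 3 reads, and the dotted line marks 1 CPM. Ebi3 and Il12b stand at 18.8 to 45.6 CPM in every library, and Il12a, Il10, Il2 and Il23a stay under 1 CPM in every library.

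Per kilobase of exon, the scale on which levels of different genes can be compared, the same imbalance was seen in every library. Ebi3 averaged 35.3 ± 1.65 CPM per kilobase in Il33flx and 36.6 ± 4.12 in Ctrl (SD, n = 2 each), the highest level of the 10 genes. Il12b averaged 12.5 ± 0.491 CPM per kilobase in Il33flx and 10.5 ± 1.36 in Ctrl. The level of Il12b was 31.5 and 45.8 times that of Il12a in the Il33flx libraries and 21.9 and 70.0 times in the Ctrl libraries, and these ratios of levels overlapped between the groups. Over summed reads the ratio of Il12b to Il12a was 37.1 in Il33flx and 34.9 in Ctrl, and the exact 95% counting intervals ran from 29.8 to 46.9 and from 27.8 to 44.2. The level of Ebi3 was 20.7 and 56.1 times that of Il27 in Il33flx, against 44.2 and 61.6 times in Ctrl, again with overlap. Over summed reads the ratio of Ebi3 to Il27 was 30.7 in Il33flx (26.3 to 36.0 by counting error) and 50.7 in Ctrl (42.1 to 61.7), so these counting intervals did not overlap, while the ratios of single libraries did. Il12b exceeded Il23a, its partner in IL-23, 567-fold in Il33flx (275 to 1412 by counting error) and 257-fold in Ctrl (153 to 470) over summed reads per kilobase. These are ratios of transcripts and say nothing of the protein pairs. IL-35, which has been described as a pair of Ebi3 and p35, would likewise draw on the abundant Ebi3 and the scarce Il12a, whose levels differed 104.8-fold in Il33flx and 121-fold in Ctrl over summed reads per kilobase.

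**Figure D2:**
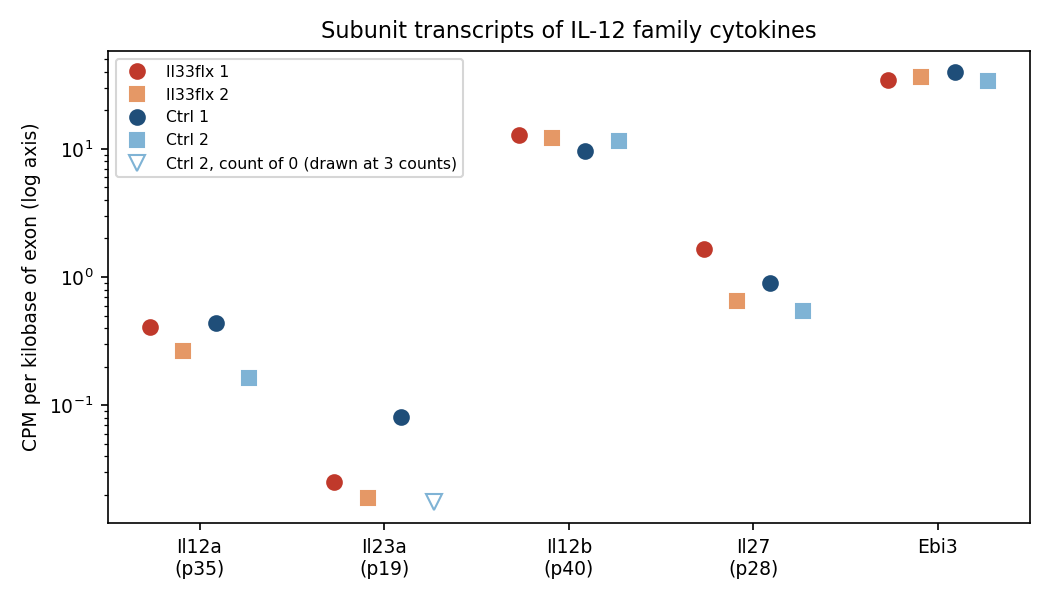
CPM per kilobase of exon (log axis) of the IL-12 family subunit genes, 1 point a library, with the open triangle for the count of 0 of Il23a in Ctrl 2. The partner subunits Il12b and Ebi3 lie at 9.57 to 39.5 CPM per kilobase, and Il12a, Il23a and Il27 lie at 1.65 or less in each library.

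Windows of 250 bases before to 50 bases after the start site were held for 6 of the 10 genes (RefSeq, GRCm38.p6). Those of the abundant Ebi3, Il12b and Tnf are shown with that of the scarce Il12a. The part of these windows in the levels was not tested. The windows are printed 5′ to 3′ on the strand of the gene, and capitals mark matches to any of the searched motifs. They lie at chr17:55952373-55952672 (plus strand, Ebi3), chr11:44399813-44400112 (plus strand, Il12b), chr17:35201958-35202257 (minus strand, Tnf) and chr3:68690394-68690693 (plus strand, Il12a).
Ebi3: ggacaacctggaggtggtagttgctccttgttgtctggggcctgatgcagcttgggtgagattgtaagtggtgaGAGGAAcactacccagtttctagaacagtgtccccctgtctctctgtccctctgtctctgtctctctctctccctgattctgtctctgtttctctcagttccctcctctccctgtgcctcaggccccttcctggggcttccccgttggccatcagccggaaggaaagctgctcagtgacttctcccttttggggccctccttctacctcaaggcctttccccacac
Il12b: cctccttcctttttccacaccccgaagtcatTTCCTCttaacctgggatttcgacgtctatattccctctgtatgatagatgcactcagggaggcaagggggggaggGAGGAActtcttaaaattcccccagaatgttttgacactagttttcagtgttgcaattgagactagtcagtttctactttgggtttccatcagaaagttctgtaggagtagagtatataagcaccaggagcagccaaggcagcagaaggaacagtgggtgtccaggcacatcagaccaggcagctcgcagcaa
Tnf: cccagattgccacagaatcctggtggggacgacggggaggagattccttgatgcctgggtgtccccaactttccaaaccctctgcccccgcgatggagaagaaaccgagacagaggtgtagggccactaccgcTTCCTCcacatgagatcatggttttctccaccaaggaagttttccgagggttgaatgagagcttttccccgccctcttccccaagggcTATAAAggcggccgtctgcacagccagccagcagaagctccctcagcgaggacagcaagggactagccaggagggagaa
Il12a: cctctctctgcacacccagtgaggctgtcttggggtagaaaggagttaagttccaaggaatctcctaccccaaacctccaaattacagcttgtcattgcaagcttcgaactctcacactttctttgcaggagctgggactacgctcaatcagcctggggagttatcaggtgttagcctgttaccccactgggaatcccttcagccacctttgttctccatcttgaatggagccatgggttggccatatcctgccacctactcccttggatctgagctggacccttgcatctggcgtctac

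Searched on both strands were the NF-kB motif, GGG and TTCC with 3 bases between, held by 5.56% of 32851 such windows, the AP-1 motif TGANTCA (7.81%), the C/EBP motif TTNNGCAA (10.8%), the PU.1 core GAGGAA (28.3%), the IRF motif, GAAA and again GAAA with 2 bases between (3.44%) and the TATA box TATAAA (13.6%). No matches overlapped one another. The GAGGAA core was matched once in the Ebi3 window, at -176 to -171 from the start site, and in the Il12b window at -143 to -138 and, on the other strand, at -219 to -214. Tnf held the core on the other strand at -117 to -112 and a TATA box at -29 to -24. The window of Il12a held none of the letters searched, nor did the other Il12a window held, which is not printed. Of the other genes with a window, Il6 held an NF-kB match at -44 to -35, with an AP-1 and a C/EBP match further upstream, and Il2 held a TATA box at -31 to -26 and a GAGGAA core at -139 to -134. No window was used for Il10, Il27, Il23a and Il15. A match describes letters and not binding.

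Of the 8 tested cytokine genes, Tnf had the widest range over the 4 libraries, 1.65 on the log2 scale. It had 8.90 and 5.0 CPM in Il33flx, against 15.7 and 6.74 CPM in Ctrl, and Ctrl 1 stood above the other 3 libraries, which overlapped. The log2 fold change of Tnf was -0.69 ± 0.47 SE, and the 95% interval ran from -1.83 to 0.44 (unadjusted p = 0.188 and adjusted p = 0.995, edgeR). Without Ctrl 1 it was 0.05 (adjusted p = 1.0, edgeR), so the negative value rests on that library. Il6, which turns naive T cells away from the regulatory fate, had 130 and 93 reads (1.84 and 1.31 CPM) in Il33flx and 64 and 131 reads (0.834 and 1.74 CPM) in Ctrl. Here Ctrl 1 was the lowest library, and the groups overlapped, with a log2 fold change of 0.29 ± 0.50 SE (adjusted p = 0.995, edgeR) that was -0.13 without Ctrl 1.

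Ctrl 1 was also the library with the most transcript of mature DC genes. Of 15 markers of mature and migratory DCs, 14 were tested and 10 of these had their highest value in Ctrl 1, where 34.2% of all tested genes did. Their summed level was 2935 and 3066 CPM in Il33flx and 4201 and 2925 CPM in Ctrl. Ccr7, the receptor that draws DCs into lymph nodes, was highest at 999 CPM in Ctrl 1. It was the 1 marker of the 14 lower in Il33flx without overlap, where 14.9% of all tested genes were. Cd83, at 1084 to 1345 CPM, weighed most in the sum and was highest in Il33flx 2. Only 1 of the 14 was lowest in Ctrl 1, namely Cd86, at 252 CPM there and 372 to 458 CPM elsewhere. Lamp3, the 1 listed marker that was not tested, was at or near 0, with 2 and 0 reads in Il33flx and 4 and 0 in Ctrl. In bulk samples a larger share of mature cells and more RNA of these genes per cell cannot be told apart, and the part of these genes in the Tnf value was not tested.

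**Figure D3:**
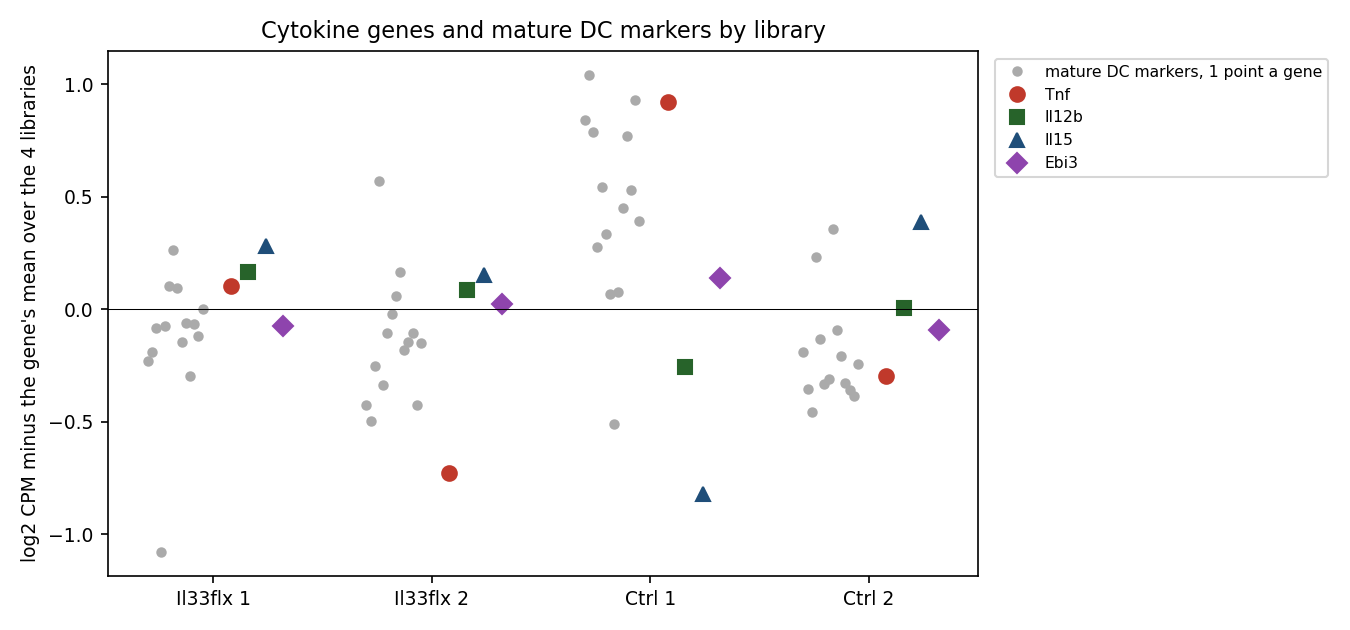
log2 CPM of a gene minus its mean over the 4 libraries, for Tnf, Il12b, Il15 and Ebi3 (coloured symbols) and for the 14 tested mature DC markers (grey, 1 point a gene). Tnf is highest in Ctrl 1, as are 10 of the 14 markers, whereas Il12b and Il15 are lowest there and Ebi3 varies little.

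The cytokines of the common gamma chain receptors differed widely in level. Il15, which DCs present on their surface bound to the IL-15 receptor alpha chain, had 16.7 and 15.2 CPM in Il33flx and 7.75 and 17.9 CPM in Ctrl. The low value in Ctrl 1 was the only one under 15 CPM, and both Il33flx libraries lay above it and below Ctrl 2. On the log2 scale Il33flx differed from Ctrl by 0.31 ± 0.40 SE (95% interval -0.64 to 1.26, adjusted p = 0.995, edgeR), and by -0.16 without Ctrl 1. Il2, made chiefly by T cells and briefly by activated DCs, had 6 and 19 reads in Il33flx and 1 and 9 reads in Ctrl. The ratio of summed reads over library totals (without TMM factors), Il33flx over Ctrl, came to 2.84. Counting error alone gave an exact 95% interval of 1.32 to 6.62. The groups overlapped, since 6 reads lay below 9. Without Ctrl 2 the ratio was 14.7, since it then rested on the 1 read of Ctrl 1, and it was 1.51 without Ctrl 1 and 1.39 without Il33flx 2.

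Il10, the inhibitory cytokine, was also near the limit, with 17 and 7 reads (0.241 and 0.099 CPM) in Il33flx and 20 and 9 reads (0.261 and 0.120 CPM) in Ctrl. Each group held 1 library with more and 1 with fewer reads, and the groups overlapped. The ratio of summed reads over library totals was 0.940 (exact 95% counting interval 0.524 to 1.67), and it was 1.45 without Ctrl 1 and 0.539 without Il33flx 1. The log2 fold change of Il10 was -0.16 ± 0.83 SE (adjusted p = 1.0, edgeR) and turned to 0.51 without Ctrl 1. For Il12a the same ratio was 1.18 (0.853 to 1.63), and it was 2.10 without Ctrl 1 and 0.838 without Ctrl 2. For Il23a it was 0.568 (0.194 to 1.5), and 0.295 without Ctrl 2. All 14 Ctrl reads of Il23a came from Ctrl 1.

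Ordered by mean level per kilobase over the 4 libraries, the genes ran Ebi3, Il12b, Il15, Tnf, Il27, Il6, Il12a, Il10, Il2 and Il23a. Every library had Ebi3 above Il12b, and the lowest Tnf level, 3.05 CPM per kilobase, was above the highest Il27 level, 1.65. Neighbours further down overlapped over the libraries, as did Il15 and Tnf, which averaged 6.36 ± 2.02 and 5.54 ± 2.87 CPM per kilobase (SD, n = 4). In Ctrl 1 alone Tnf, at 9.59, was level with Il12b, at 9.57, and lay above Il15, at 3.43. Among 21596 protein-coding genes on the same scale, 93.5% lay below Ebi3 and 82.7% below Il12b, against 50.7% below Il12a and 39.7% below Il23a.

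Between the genotypes, 0 of the 8 tested cytokine genes were called at an adjusted p below 0.05 in edgeR, where 0.00667% of all tested genes were called, and 0 had an unadjusted p under 0.05, where 3.26% of all did. DESeq2, which called 0.353% of all genes, and limma-voom, which called none, also called 0 of the 8. The log2 fold changes ran from -0.69 for Tnf to 0.67 for Il27, with a median of 0.21 beside 0.01 over all genes tested. Il12b was the 1 gene of the 8 that was higher in Il33flx without overlap, where 15.4% of all tested genes were, and 0 of the 8 were lower without overlap, where 14.9% were. Il12b differed by 0.25 ± 0.21 SE on the log2 scale (95% interval -0.26 to 0.76, unadjusted p = 0.284 and adjusted p = 0.995, edgeR), and its groups also stayed apart with DESeq2 size factors and with library size alone. Without Ctrl 1 the value was 0.13. The 95% interval of the fold change, Il33flx over Ctrl, was 0.696 to 1.33 for Ebi3 and 0.834 to 1.69 for Il12b, the narrowest of the 8. It was 0.59 to 4.31 for Il27, 0.642 to 2.40 for Il15, 0.282 to 1.36 for Tnf, 0.536 to 2.80 for Il6, 0.374 to 3.35 for Il12a and 0.224 to 3.56 for Il10. Changes of 2-fold in these last 6 genes lie inside the intervals in at least 1 direction, and a missed threshold does not show that their levels were alike. The authors' deposited table listed 9 of the 10 genes, all but Il23a, with log2 fold changes from -0.72 for Tnf to 1.39 for Il2, each at an adjusted p of 1.0, and called 0 of the 9, where it called 0.34% of its 15001 genes.

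**Figure D4:**
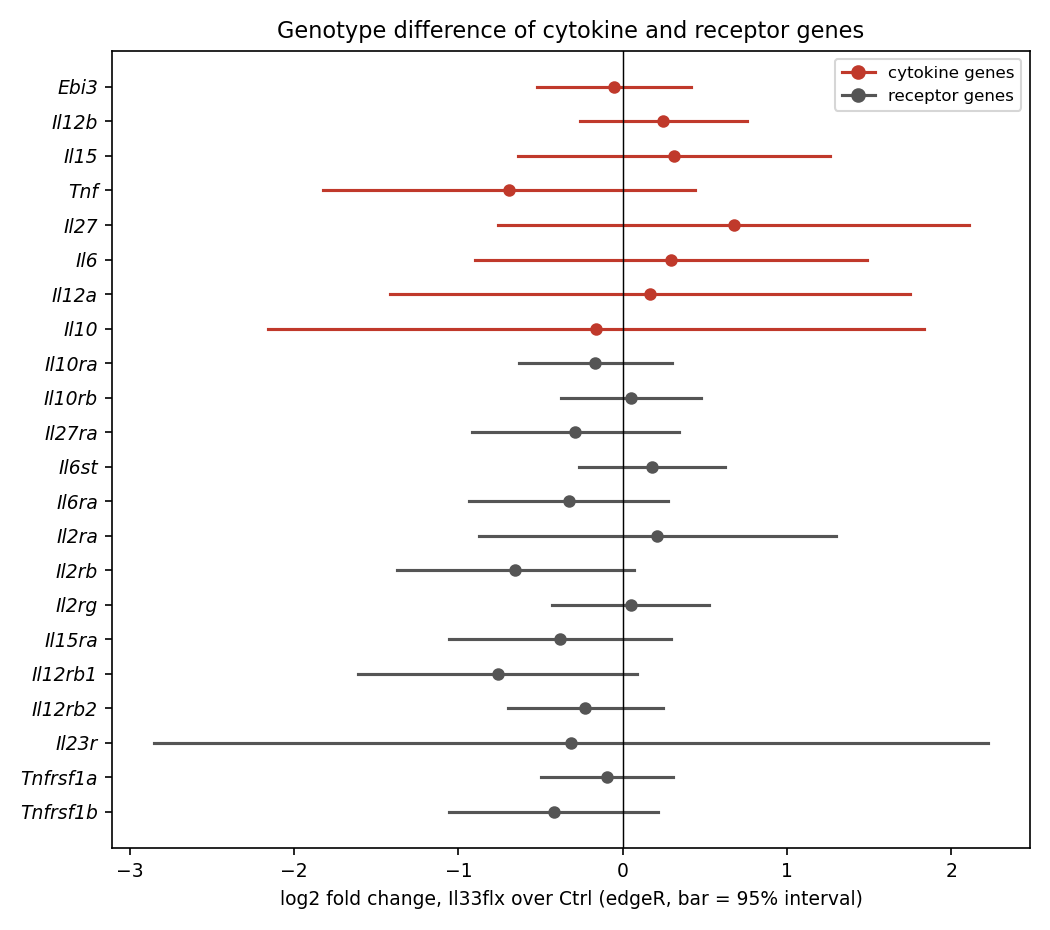
log2 fold change of Il33flx over Ctrl for the 8 tested cytokine genes (red) and the 14 genes of their receptor chains (grey), with bars for the 95% interval of edgeR. Every bar crosses 0, and the bars of Ebi3 and Il12b are the shortest among the cytokine genes.

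Il27 and Ebi3 each share exon sequence with a gene on the opposite strand, and no source used here gives the strand setting of the counting. Exons of Il27 overlap those of Apobr over 103 bases and exons of Ebi3 those of Gm16712 over 270 bases. Apobr, a lipoprotein receptor gene, was at 131 and 149 CPM in Il33flx and 185 and 156 CPM in Ctrl, and Gm16712 at 2.34 and 2.23 CPM in Il33flx and 0.964 and 2.22 CPM in Ctrl. Il2 lies within the span of Adad1 on the other strand, with 0 shared exon bases. Over the shared exon bases, reads of these genes and of their partners cannot be told apart without the strand, so the Il27 and Ebi3 values are uncertain to that extent.

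Markers of some other cells in the gate stood apart between the genotypes in the same direction as Il12b. Most T cell and plasma cell markers went the other way. All 8 B cell markers were higher in Il33flx without overlap, where 15.4% of all tested genes were, with summed levels of 107 and 87.1 CPM in Il33flx and 51.6 and 53.5 CPM in Ctrl, and none was at 0. Summed levels of 9 neutrophil markers were 618 and 434 CPM in Il33flx and 316 and 339 CPM in Ctrl, with 4 of them higher without overlap. Erythroid markers, 9 in all, summed to 35.9 and 15.0 CPM in Il33flx and 6.72 and 6.41 CPM in Ctrl, and 7 were higher without overlap. Basophil and mast cell markers, 7 in all, had a median log2 fold change of 1.07 with 3 higher without overlap, although their sums overlapped, at 346 and 266 CPM in Il33flx and 273 and 320 CPM in Ctrl. For T cells, a source of Il2, 14 markers summed to 175 and 133 CPM in Il33flx and 222 and 159 CPM in Ctrl. Of these 14, 7 were lower in Il33flx without overlap, where 14.9% of all tested genes were, 1 was higher, and 11 had their highest value in Ctrl 1. Of 6 plasma cell markers, 4 were lower and 1 was higher without overlap, beside 14.9% and 15.4% of all tested genes. They summed to 350 and 333 CPM in Il33flx and 405 and 360 CPM in Ctrl, and Xbp1, at 287 to 341 CPM, made up most of that sum. Sums of 8 NK cell and 7 plasmacytoid DC markers overlapped between the groups, with 2 and 0 higher without overlap. Sums of 14 macrophage and monocyte markers overlapped, at 2077 and 1954 CPM in Il33flx and 2084 and 1874 CPM in Ctrl. Of these 14, 2 were higher and 0 lower without overlap, beside 15.4% and 14.9% of all tested genes. Conventional type 1 DC markers, 8 in all, summed to 7102 and 7612 CPM in Il33flx and 9256 and 8067 CPM in Ctrl. Irf8, at 3346 to 4817 CPM, and Wdfy4, at 2018 to 2847 CPM, weighed most in that sum. Of these 8, 3 were lower without overlap, and 6 had log2 fold changes below 0. Xcr1 (800 and 798 CPM in Il33flx, 506 and 841 CPM in Ctrl) and Clec9a lay above 0. Type 2 DC markers, 8 in all, summed to 520 and 499 CPM in Il33flx and 496 and 451 CPM in Ctrl, with 2 higher without overlap. Over the 4 libraries edgeR and limma-voom called 0 of these markers at an adjusted p below 0.05. The unadjusted p in edgeR was under 0.05 for 6 B cell, 6 erythroid, 3 neutrophil, 1 basophil or mast cell, 1 macrophage or monocyte and 1 plasma cell markers. It was under 0.05 for 0 of the T cell, NK cell, plasmacytoid DC, type 1 DC and type 2 DC markers. DESeq2 called 3 B cell markers and 1 erythroid marker, and edgeR without Ctrl 1 called 2 neutrophil and 2 erythroid markers. The part of these markers in the cytokine values was not tested.

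The receptor chains for these cytokines were mostly expressed, and 0 of 14 were called or had an unadjusted p under 0.05 in edgeR, with 0 called by DESeq2 and by limma-voom. The log2 fold changes had a median of -0.26 and lay below 0 for 10 of the 14, and 4 genes were lower in Il33flx without overlap, where 14.9% of all tested genes were. Il10ra, the ligand-binding chain for IL-10, was at 514 and 438 CPM in Il33flx and 592 and 477 CPM in Ctrl. Il10rb, its partner, was at 64.3 and 63.5 CPM in Il33flx and 59.4 and 64.0 CPM in Ctrl. Il12rb1, the chain that binds p40, had 1.86 and 1.52 CPM in Il33flx and 3.10 and 2.63 CPM in Ctrl, without overlap. Its log2 fold change of -0.76 ± 0.35 SE had an unadjusted p of 0.0705 and an adjusted p of 0.995 (edgeR). Il12rb2, the signalling chain for IL-12, was also lower without overlap, at 60.0 and 48.3 CPM in Il33flx and 63.8 and 63.0 CPM in Ctrl.

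Il2rb, the beta chain shared by the IL-2 and IL-15 receptors, had 14.8 and 11.1 CPM in Il33flx and 24.9 and 15.8 CPM in Ctrl. The groups of Il2rb did not overlap, and its log2 fold change was -0.66 ± 0.30 SE (unadjusted p = 0.0683, adjusted p = 0.995, edgeR), or -0.28 without Ctrl 1. Il15ra, which presents IL-15 to neighbouring cells, had 16.9 and 17.4 CPM in Il33flx and 27.7 and 17.0 CPM in Ctrl, with only Ctrl 1 apart. The common gamma chain gene Il2rg had 127 and 104 CPM in Il33flx and 122 and 102 CPM in Ctrl. Il2ra stood at 1.61 and 2.82 CPM in Il33flx and 2.37 and 1.46 CPM in Ctrl, and Il23r, the specific chain for IL-23, at 14 and 4 reads in Il33flx and 4 and 20 reads in Ctrl. Il6st, the gp130 chain shared by the receptors for IL-6 and IL-27, had 154 and 129 CPM in Il33flx and 118 and 132 CPM in Ctrl, while Il6ra had 98.5 and 62.8 CPM in Il33flx and 108 and 94.7 CPM in Ctrl. Il27ra lay at 9.94 and 8.99 CPM in Il33flx and 13.3 and 9.80 CPM in Ctrl. Of the TNF receptor genes, Tnfrsf1a was lower without overlap by a small step, at 119 and 114 CPM in Il33flx and 124 and 125 CPM in Ctrl, and Tnfrsf1b had 247 and 199 CPM in Il33flx and 368 and 229 CPM in Ctrl. Without Ctrl 1 the receptor median was -0.04, with 8 of 14 values below 0.

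Among 30 transcription factors and mRNA regulators of these cytokine genes, edgeR, DESeq2 and limma-voom called 0, and 0 had an unadjusted p under 0.05 in edgeR. Under TMM scaling 20 of the 30 log2 fold changes were below 0, with a median of -0.05, but with library size alone 11 did, with a median of 0.03 beside 0.09 over all genes, and 18 had their highest value in Ctrl 1, where 34.2% of all tested genes did. Without Ctrl 1, 10 of the 30 were below 0 and the median was 0.03. The 4 with the smallest p were Cebpb, Irf5, Rela and Irf4. Cebpb, a factor that activates Il6, had 0.382 and 0.635 CPM in Il33flx, against 1.30 and 0.891 CPM in Ctrl. Irf5, a factor for Il12b and Tnf, had 919 and 986 CPM in Il33flx and 1346 and 1072 CPM in Ctrl. Rela, the p65 subunit of NF-kB, had 163 and 171 CPM in Il33flx and 228 and 187 CPM in Ctrl. Irf4, a factor of type 2 DCs, ran the other way at 25.3 and 22.7 CPM in Il33flx and 14.6 and 21 CPM in Ctrl. The groups of these 4 genes, chosen by smallest p, did not overlap, and their adjusted p was 0.995 each (edgeR). Of the 30, 2 were higher and 7 lower without overlap, where 15.4% and 14.9% of all tested genes were.

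Proteins that fold, pair or release the cytokines were high and without a call, with 0 of 6 at an unadjusted p under 0.05 in edgeR and 0 called by DESeq2 or limma-voom. The TNF-releasing protease gene Adam17 had 158 and 132 CPM in Il33flx and 112 and 159 CPM in Ctrl, and Rhbdf2, which carries that protease to the surface, 37.8 and 33.0 CPM in Il33flx and 47.4 and 34.0 CPM in Ctrl. The endoplasmic reticulum chaperone genes Calr and Hsp90b1 overlapped between the groups, at 1117 and 1076 CPM in Il33flx and 1324 and 1094 CPM in Ctrl for Calr. Hsp90b1 had 734 and 683 CPM in Il33flx and 473 and 778 CPM in Ctrl.

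Other cytokines that T cells read were measured in the same libraries, and 0 of 15 tested were called by edgeR, DESeq2 or limma-voom. Il1b, the IL-1 family cytokine that promotes IL-17-producing T cells, was the 1 gene of these with an unadjusted p under 0.05 in edgeR, where 3.26% of all tested genes had one. It had 488 and 649 CPM in Il33flx, against 328 and 442 CPM in Ctrl, without overlap, and a log2 fold change of 0.56 ± 0.23 SE (unadjusted p = 0.0479, adjusted p = 0.995, edgeR). Cxcl10, a chemokine that draws activated T cells, had 17.9 and 10.5 CPM in Il33flx and 8.27 and 9.59 CPM in Ctrl, and Osm, a relative of IL-6, 32.3 and 27.1 CPM in Il33flx and 16.4 and 26.1 CPM in Ctrl. Il7, a survival factor for naive T cells, was lower without overlap, at 29 and 23 reads in Il33flx and 57 and 40 reads in Ctrl. Of the 15, 5 were higher and 1 lower without overlap, where 15.4% and 14.9% of all tested genes were, and the median log2 fold change was 0.13.

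The genes whose pattern over the 4 libraries was closest to that of Tnf, by the Euclidean distance of centred log2 CPM among 8988 protein-coding genes outside the lists, were Mab21l3, Igsf3 and Gbp2, at distances of 0.13, 0.28 and 0.29. Gbp2, an interferon-induced GTPase gene, had 36.3 and 22.9 CPM in Il33flx and 54.0 and 27.2 CPM in Ctrl, highest in Ctrl 1 like Tnf. The genes closest to Ebi3 were Pea15a, Yif1a and Rfng, at distances of 0.0064, 0.010 and 0.012, on a pattern that varied by only 0.23 on the log2 scale over the libraries, against 1.65 for Tnf. With 4 libraries such a likeness is a description only.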

How the data were processed

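mRNA libraries (Illumina Truseq) were sequenced from sorted cells, per the labels' protocols. The submitters' processing notes name Trimmomatic 0.39, STAR, HTSeq, DESeq2 and the build GRCm38, with no further version and no strand setting. The deposited counts are whole reads per gene, not normalized by the authors. In the authors' deposited table the signal columns are those counts divided by 1 size factor per library, the log2 columns a fold change of Il33flx over Ctrl with its standard error, the score column a Wald statistic, and the p-value columns unadjusted and adjusted p-values, per the file headers. The 5 HTSeq summary rows stayed out of library sizes and tests; 69.9% to 72.2% of counted reads were in genes.

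Il33flx was compared with Ctrl over all genes with edgeR 4.0.16 under R 4.3.3 and its quasi-likelihood test (filterByExpr, TMM, no covariate, Benjamini-Hochberg adjustment, called below 0.05); 14995 genes were tested. The standard error is the log2 fold change over the square root of F. Alternatives used DESeq2 1.42.0, limma-voom (limma 3.58.1), other scalings and filters, the replicate number as a block, and each library left out. Genes under 1 CPM in every library, a limit chosen after seeing the data, are given as raw counts, with the ratio of summed counts over library totals and an exact 95% interval. Exon lengths, positions and symbols came from GENCODE M21. With 2 libraries a group no permutation test of a single value can reach 0.05, so none was run. Named genes were all 10 cytokine genes, all receptor chains, and the 4 genes of smallest p from each of the other lists of regulators, partners and cytokines; likeness was taken for the tested cytokine gene of widest range and that of highest level per kilobase. The members and lists were chosen with earlier results of these data known. The procedure was also run on simulated counts with 200 changed genes, and how many of these it called is not given here.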

Additional observations from a re-analysis of the deposited data

How the results depend on the processing

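The replicate numbers gave no pairing that the labels state. Deviations of Ctrl 1 and Il33flx 1 from their group means correlated at -0.0323 over 14995 genes, and with only 2 numbers the data cannot settle it. With the replicate block edgeR called 19 genes higher and 14 lower, 0 of them cytokine genes, 1 a neutrophil marker and 2 erythroid markers. The main counts of 1 higher and 0 lower became 32 and 21 with the DESeq2 Wald test. The count of higher genes was 0 with library size alone, with no filter on low counts and with limma-voom. With each library left out in turn it ran from 0 to 19, and the count of lower genes from 0 to 19. The count of cytokine genes called was 0 under every setting run.

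Of the 8 tested cytokine genes, only Il12b kept its direction under every setting run, with log2 fold changes of 0.13 to 0.38 when a library was left out and an adjusted p of 0.295 at the lowest (edgeR). With a library left out, the log2 fold change ran from -0.94 to 0.51 for Il10, -0.15 to 1.23 for Il27, -0.17 to 0.074 for Ebi3, -0.13 to 0.91 for Il6, -0.38 to 1.04 for Il12a, -0.16 to 1.03 for Il15 and -1.18 to 0.054 for Tnf. Ebi3 was also at 0.028 with library size alone. Of the 26 other named genes 17 kept their direction. The rest ran from -0.32 to 0.0077 for Il10ra, -0.21 to 0.61 for Il2ra, -0.11 to 0.22 for Il2rg, -0.70 to 0.026 for Il15ra, -1.46 to 1.25 for Il23r, -0.43 to 0.068 for Rhbdf2, -0.28 to 0.011 for Calr, -0.13 to 0.58 for Hsp90b1 and -0.13 to 0.37 for Adam17. The cause was not tested. None of these genes was called under any setting run. Levels per kilobase moved by less than the spread over libraries when the longest transcript replaced merged exons, and their order did not change. Depth limits Il10, Il2, Il12a and Il23a, each under 1 CPM.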

Other observations

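Of 11 cytokine genes typical of T, NK and mast cells, 1 passed the filter on low counts. Il17f, that gene, had 97 and 145 reads (1.37 and 2.05 CPM) in Il33flx and 50 and 129 reads (0.651 and 1.72 CPM) in Ctrl, whereas Il17a, its close relative, had 0 and 0 reads in Il33flx and 3 and 2 reads in Ctrl. The log2 fold change of Il17f was 0.53 with an adjusted p of 0.995 (edgeR). Ifng, the cytokine that IL-12 elicits, had 26 and 8 reads in Il33flx and 6 and 7 reads in Ctrl, and shares 336 exon bases with Gm49751 on the same strand. Il5, Il13, Il9 and Il3 had 0 reads in every library, which allows up to 3 reads in each.

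Beside Il1b, its sister gene Il1a stood at 2.61 and 3.61 CPM in Il33flx and 0.938 and 2.99 CPM in Ctrl. Of the TGF-beta genes, Tgfb1 had 13.2 and 11.1 CPM in Il33flx and 8.16 and 11.9 CPM in Ctrl, and Tgfb2 had 8 and 10 reads in Il33flx and 39 and 5 reads in Ctrl.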
